A study of Mus musculus with 20 samples.

Results

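Voltage-gated calcium channels open when the membrane of a cardiomyocyte depolarizes and let calcium into the cell, where it triggers contraction and contributes to the pacemaker potential. A channel is built around a pore-forming alpha1 subunit. L-type pores (Cacna1c, the main pore of working myocardium, and Cacna1d, used in atrial and pacemaker cells) carry a long-lasting current, and T-type pores (Cacna1g and Cacna1h) open at more negative potentials and are known for their use in the embryonic heart and in pacemaker tissue. Cacnb2 encodes a cytoplasmic beta subunit that brings the L-type pore to the membrane, and Cacna2d1 and Cacna2d2 encode extracellular alpha2delta subunits that raise the amount of channel at the surface. These 7 genes, listed by symbol, were followed among the 33495 genes of the deposited table in all 20 RNA-seq libraries, and all 7 passed the filter on low counts in every comparison.

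Each library held RNA of embryonic mouse heart (C57BL/6) in which 1 of 3 Cre lines removed floxed Kmt2d, a histone H3 lysine methyltransferase. Mutants carried Cre, Kmt2d fl/fl and mTmG/+, and controls carried the same Cre, Kmt2d fl/+ and mTmG/+, so both genotypes have the Cre and the reporter and the controls have lost 1 copy of Kmt2d where Cre was active. Mesp1Cre acts in early mesoderm (whole hearts at E9.0, 4 mutants and 4 controls), Tnnt2::Cre in cardiomyocytes only, leaving the other cells of the heart intact (whole hearts at E11.5, 3 and 3), and Mef2cAHF::Cre in anterior heart field precursors (right ventricle and outflow tract at E11.5, 3 and 3). The protocol text in the labels gives E11.5 for all hearts. The titles and genotypes of the Mef2cAHF::Cre libraries are the opposite of the names of their columns in the table, so these groups are named as labelled and the group results of this line are given by both readings, while fits that leave out a library are by the titles alone. The sources do not say whether a library is 1 embryo or a pool, so p-values measure the spread between these libraries.

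Library totals ran from 21727258 to 45341870 counted reads. Kmt2d, listed as Mll2, was not past the threshold in Mesp1Cre (log2 fold change -0.21, SE 0.0712, adjusted p = 0.0764) or Tnnt2::Cre (-0.35, SE 0.119, adjusted p = 0.327), with no overlap between mutants and controls in either line, and it was higher in the Mef2cAHF::Cre libraries labelled mutant (0.32 by the titles and -0.32 by the column names, SE 0.0634, adjusted p = 0.0359). The 12 cardiomyocyte markers were counted in every group, at 27460.1 to 64289.8 summed CPM (reads per gene scaled to a common library total) per library. Y-linked genes showed male embryos in 4 of 4 Mesp1Cre mutants and 2 of 4 controls, in 0 of 3 Mef2cAHF::Cre libraries labelled mutant and 1 of 3 labelled control, and in 1 of 3 Tnnt2::Cre mutants and 2 of 3 controls. Tissue libraries mix cells, so fewer cells of a type and less RNA per cell cannot be told apart.

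In mm9, the build of the table, the L-type pores lie on the minus strand of chromosome 6 from 118542322 to 119146249 (Cacna1c, ENSMUSG00000051331) and of chromosome 14 from 30853135 to 31304342 (Cacna1d, ENSMUSG00000015968). The T-type pores lie on the minus strand of chromosome 11 from 94269705 to 94335414 (Cacna1g, ENSMUSG00000020866) and of chromosome 17 from 25511232 to 25570728 (Cacna1h, ENSMUSG00000024112). Cacnb2 (ENSMUSG00000057914) lies on the plus strand of chromosome 2 from 14525933 to 14909535. The alpha2delta genes lie on the plus strand of chromosome 5 from 15440606 to 15876867 (Cacna2d1, ENSMUSG00000040118) and of chromosome 9 from 107302064 to 107431389 (Cacna2d2, ENSMUSG00000010066). In the GENCODE M1 annotation no exon of the 7 genes overlapped a gene on the same strand. A gene on the opposite strand covered 5.54% of the exonic bases of Cacna1d (Chdh), 5.3% of Cacnb2 (Gm10849 and Gm13269), 1.61% of Cacna1h (Tpsg1) and 1.36% of Cacna2d2 (Gm17141). The sources do not give the strand setting of the counting, so reads from those stretches are uncertain.

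RefSeq promoter windows of the GRCm38.p6 assembly, 250 bases before to 50 bases after a start, matched 5 of the 7 genes (9 windows), and Cacna1g and Cacna1h had no entry. The windows of the 2 alpha2delta genes are shown because these paralogues changed in opposite directions between stages and between regions, as described further on. Each is on the plus strand, 5′ to 3′, with CG pairs in capitals.
Cacna2d1, chr5:15934441-15934740: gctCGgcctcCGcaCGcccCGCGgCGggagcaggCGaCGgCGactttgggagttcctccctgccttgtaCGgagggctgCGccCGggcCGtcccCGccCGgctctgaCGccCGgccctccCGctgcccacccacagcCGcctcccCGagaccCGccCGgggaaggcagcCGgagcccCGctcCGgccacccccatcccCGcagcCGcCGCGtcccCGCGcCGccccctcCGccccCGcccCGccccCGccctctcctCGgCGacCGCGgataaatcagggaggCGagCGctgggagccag
Cacna2d2, chr9:107399630-107399929: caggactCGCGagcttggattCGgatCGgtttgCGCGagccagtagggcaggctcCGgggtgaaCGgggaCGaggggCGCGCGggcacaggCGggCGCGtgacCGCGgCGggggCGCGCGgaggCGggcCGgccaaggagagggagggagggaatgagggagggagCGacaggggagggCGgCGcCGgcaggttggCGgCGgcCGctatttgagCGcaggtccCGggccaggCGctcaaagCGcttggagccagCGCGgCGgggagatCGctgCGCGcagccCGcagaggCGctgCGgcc
Both windows were rich in CG pairs, with 42 in Cacna2d1 and 43 in Cacna2d2. The ratio of observed to expected CG pairs was 0.92 and 1.1, against a median of 0.38 over the 32851 windows of the table. The 6-letter GC box GGGCGG, searched on both strands, occurred 7 times in the Cacna2d1 window and 1 time in the Cacna2d2 window, and 35.7% of all windows held it. Among the other 7 windows, 1 each of Cacna1c, Cacna1d and Cacnb2 had a ratio from 0.94 to 1.18, and the remaining 4 had ratios from 0.15 to 0.36.

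Levels of different genes were compared as FPKM, the deposited reads of a gene scaled by its length and by the total of the library. In Mesp1Cre controls at E9.0 the alpha2delta subunit Cacna2d2 was the most abundant of the 7, at 45.7 ± 6.9 FPKM (SD, n = 4), followed by Cacna1c at 15.6 ± 1.88 FPKM. Cacna1d (9.55 ± 0.812 FPKM), Cacna1h (9.37 ± 1.18) and Cacnb2 (8.99 ± 0.729) overlapped between neighbours in the order. Cacna2d1 (5.41 ± 0.871 FPKM) and Cacna1g (0.144 ± 0.0907 FPKM) were lower, each without overlap with the gene above. Cacna1g, a T-type pore, was thus the least abundant member at E9.0, with 15 to 71 reads in any Mesp1Cre library.

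In Tnnt2::Cre controls at E11.5 the order was Cacna2d2 (18.1 ± 2.03 FPKM, SD, n = 3), Cacna1c (11.6 ± 1.13), Cacna2d1 (6.98 ± 0.252), Cacna1h (6.54 ± 0.804), Cacnb2 (4.76 ± 0.469), Cacna1d (3.36 ± 1.01) and Cacna1g (0.8 ± 0.211). Cacna2d1 overlapped with Cacna1h, and Cacnb2 with Cacna1d. In the Mef2cAHF::Cre libraries the leading genes were Cacna1c and Cacna2d1, at 17.2 ± 1.61 and 13.8 ± 0.832 FPKM in those labelled control and at 16.3 ± 1.2 and 13 ± 0.409 FPKM in those labelled mutant. The mean of Cacna2d2 lay below both means there, at 4.59 ± 1.47 FPKM in the libraries labelled control and 11.2 ± 2.09 FPKM in those labelled mutant. In the libraries labelled mutant Cacna2d2 overlapped with Cacna2d1, and labelled mutant 1 had 13.7 FPKM of Cacna2d2 and 12.7 FPKM of Cacna2d1.

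Ratios of FPKM within a library showed the change in make-up. The ratio of Cacna2d2 to Cacna2d1 was 5.87 to 11.6 in Mesp1Cre controls, 2.4 to 2.81 in Tnnt2::Cre controls, 0.265 to 0.425 in Mef2cAHF::Cre libraries labelled control and 0.731 to 1.07 in those labelled mutant. Among T-type pores the ratio of Cacna1h to Cacna1g was 28.7 to 128 in Mesp1Cre controls and 5.88 to 10.7 in Tnnt2::Cre controls. The ratio of Cacna1c to Cacna1d, the L-type pores, was 1.5 to 1.75 in Mesp1Cre controls, 2.85 to 4.07 in Tnnt2::Cre controls and 5.22 to 8.63 over the Mef2cAHF::Cre libraries.

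**Figure D1:**
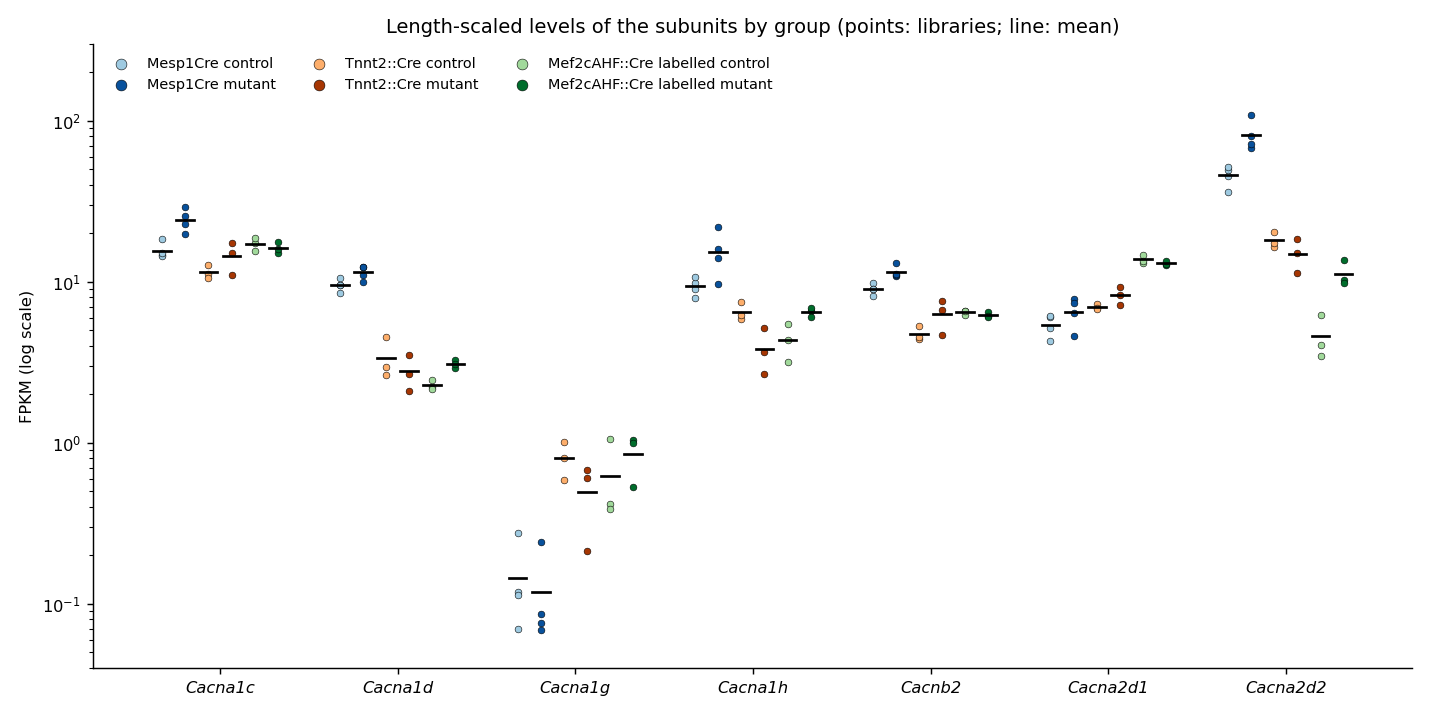
Length-scaled level (FPKM, log axis) of each subunit gene in the 6 groups. Each point is a library and each line the mean of a group (n = 4 for Mesp1Cre, n = 3 for the others). Cacna2d2 leads in the E9.0 hearts at 36.1 to 108 FPKM, and Cacna1g is the lowest gene in every group at 0.0688 to 1.06 FPKM.

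The E11.5 Tnnt2::Cre controls were compared with the E9.0 Mesp1Cre controls to describe the subunits between stages. All 7 genes passed the threshold, an FDR (Benjamini-Hochberg adjusted p) under 0.05 in edgeR's quasi-likelihood test, where 38.3% of 16697 genes did. The T-type pore Cacna1g and the alpha2delta subunit Cacna2d1 were higher at E11.5, and Cacna1c, Cacna1d, Cacna1h, Cacnb2 and Cacna2d2 were lower. The median log2 fold change of the 7 was -0.48, and that of all genes was -0.01. In the deposited table the column names of each line carry a number of their own. Stage, Cre line and that set of libraries cannot be told apart in this comparison. Totals were 25581534 to 28790705 reads in the E9.0 controls and 36809972 to 45341870 in the E11.5 controls. Markers of other cells also differed between the stages. All 10 erythroid markers were higher at E11.5 (102797 to 158592 summed CPM against 5430.5 to 17943 CPM at E9.0), as were 5 of 5 epicardial markers (176 to 209 against 22.6 to 61.4 CPM) and 5 of 6 macrophage markers (47.1 to 53.7 against 8.55 to 16.9 CPM), while 4 of 6 pacemaker markers were lower and 1 was higher. Of 12 cardiomyocyte markers 4 were higher and 3 lower. The part of these cells in the channel values was not tested.

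Values per library are CPM after trimmed-mean scaling (TMM) over all 20 libraries. Here and below, overlap describes the libraries of a gene and is not a test. The share of all genes without overlap was not counted. Cacna1g had 1.25, 1.2, 2.81 and 0.731 CPM in the E9.0 controls and 8.65, 11 and 6.68 CPM in the E11.5 controls. It was 5.72-fold higher at E11.5 (log2 fold change 2.52, SE 0.384, adjusted p = 0.000395), with no overlap, although it rests on 18 to 71 reads per library at E9.0. Cacna2d1 had 17.8, 21.6, 24 and 25.2 CPM at E9.0 and 30.5, 29.3 and 30.4 CPM at E11.5. Its rise was 1.33-fold (0.41, SE 0.13, adjusted p = 0.0275), also without overlap. It was no longer past the threshold when Mesp1Cre control 1 or 2 or any 1 of the 3 Tnnt2::Cre controls was left out (adjusted p from 0.0514 to 0.0755).

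The largest falls were those of an L-type pore and an alpha2delta subunit. Cacna1d had 88.7, 98.6, 85.6 and 78.9 CPM in the E9.0 controls and 42.4, 28.3 and 26.3 CPM in the E11.5 controls, 2.77-fold lower (log2 fold change -1.47, SE 0.158, adjusted p = 3.79e-05). Cacna2d2 had 284, 294, 249.7 and 203 CPM at E9.0 and 117, 96.4 and 108 CPM at E11.5, 2.46-fold lower (-1.30, SE 0.126, adjusted p = 1.95e-05). For both genes the lowest E9.0 library was above the highest E11.5 library.

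The beta subunit Cacnb2 fell 1.84-fold (log2 fold change -0.88, SE 0.0965, adjusted p = 4.57e-05), from 73.6 to 89.6 CPM at E9.0 to 41 to 48.3 CPM at E11.5. The T-type pore Cacna1h changed less (-0.48, SE 0.119, adjusted p = 0.00778), from 73.2 to 103 CPM to 58.5 to 72.4 CPM. The main L-type pore Cacna1c had the smallest fall (-0.40, SE 0.104, adjusted p = 0.0104), from 129 to 173 CPM to 108 to 122 CPM, and its adjusted p was 0.0509 without Tnnt2::Cre control 2. None of these 3 overlapped between the stages.

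The same comparison in the mutant libraries called 6 of the 7 genes, where 35.9% of 16617 genes were called. The directions were as in the controls. Cacna1h was 3.76-fold lower in E11.5 than in E9.0 mutants (log2 fold change -1.91, SE 0.258, adjusted p = 0.000605) and Cacna2d2 5.12-fold lower (-2.36, SE 0.174, adjusted p = 3.20e-05). Cacna1d (-1.95, SE 0.15), Cacna1c (-0.65, SE 0.143), Cacnb2 (-0.78, SE 0.129) and Cacna1g (2.20, SE 0.531) were also called, and Cacna2d1 was not (0.45, SE 0.164, adjusted p = 0.0561).

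**Figure D2:**
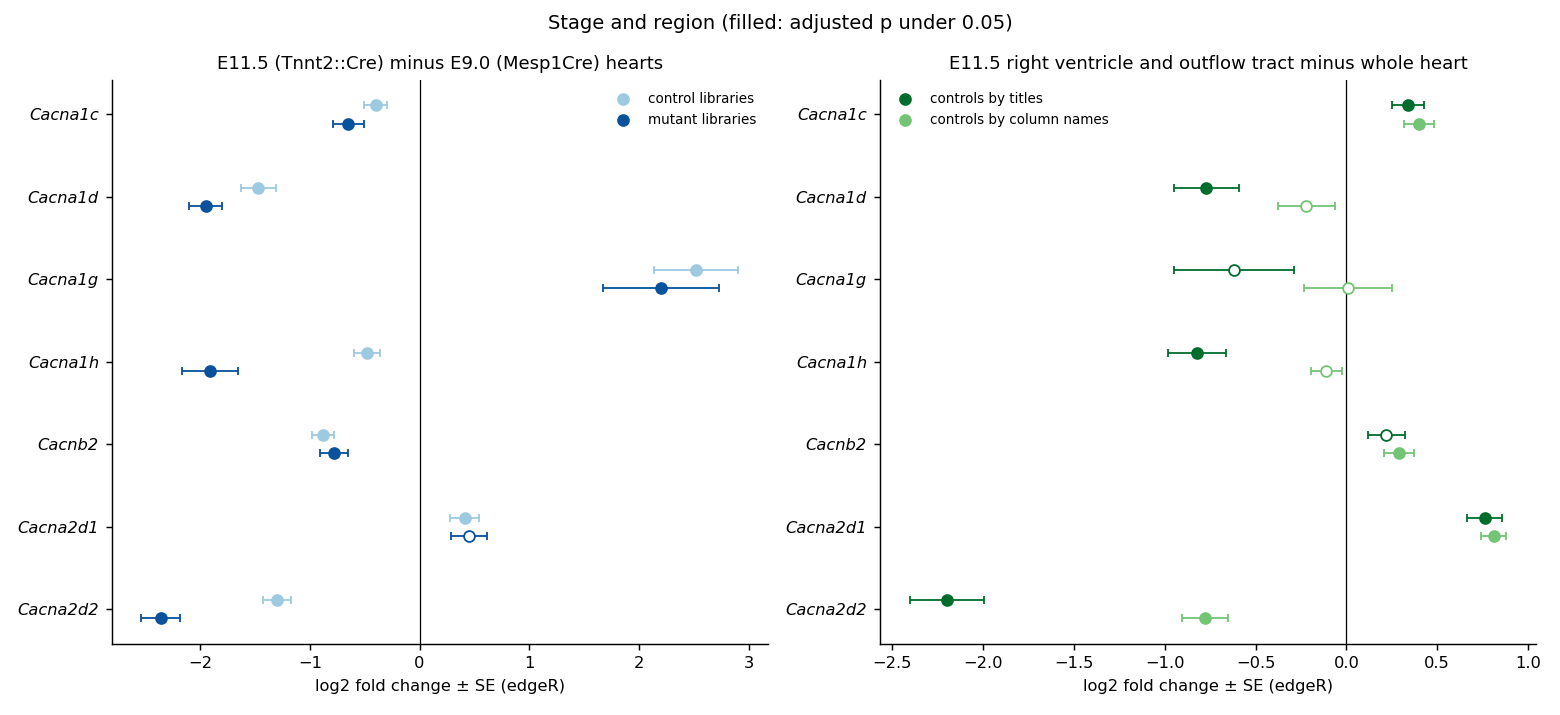
Log2 fold change (x axis, with SE from edgeR) of each subunit gene between E11.5 and E9.0 hearts (left, control and mutant libraries) and between E11.5 right ventricle with outflow tract and whole heart (right, control libraries by the titles or by the column names). Filled points have an adjusted p under 0.05. On the left Cacna1g (2.52 and 2.20) and Cacna2d1 (0.41 and 0.45) lie above 0 and the other genes below it, and on the right Cacna2d2 lies at -2.20 or -0.78.

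Deletion in early mesoderm was examined in the E9.0 Mesp1Cre hearts. Of the 7 genes, 2 passed the threshold, both higher in mutants, where 11.47% of 15883 genes passed. These were Cacna2d2 and Cacna1c. The median log2 fold change of the 7 was 0.21, and that of all genes was -0.0018.

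Cacna2d2, the most abundant subunit at this stage, had 535, 345, 359.6 and 391 CPM in mutants and 284, 294, 249.7 and 203 CPM in controls. Every mutant was above every control, and mutants were 1.6-fold higher (log2 fold change 0.68, SE 0.14, adjusted p = 0.00888). The call held in each of the 8 fits that left out 1 library (0.53 to 0.76). Cacna1c had 210.5, 166, 240.2 and 184 CPM in mutants and 139, 173, 129 and 139 CPM in controls, where control 2 lay above mutant 2. It was 1.4-fold higher (0.48, SE 0.119, adjusted p = 0.0211). Its adjusted p was 0.0555 to 0.0665 when control 1, 3 or 4 or mutant 1 or 3 was left out, 0.0563 with sex as a covariate, and 0.0548 with the replicate block. A code in the sample descriptions, which the labels do not explain, is shared by same-numbered mutants and controls of this line (1 code for replicates 1 and 2, and 1 each for 3 and 4). With that code as a block both calls held (Cacna1c adjusted p = 0.0383, Cacna2d2 adjusted p = 0.00735).

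The T-type pore Cacna1h had 183, 83.7, 136 and 115 CPM in mutants and 95.6, 103, 73.2 and 85.3 CPM in controls. Mutants 1, 3 and 4 were above every control and mutant 2 was not, and the log2 fold change of 0.55 did not pass (SE 0.186, adjusted p = 0.0743). Without mutant 2 it was 0.73 (adjusted p = 0.00913), and with cardiomyocyte content as a covariate 0.56 (SE 0.148, adjusted p = 0.0306). With only genes of at least 10 counts in every library tested, it was 0.56 (SE 0.179, adjusted p = 0.0495). It did not pass when any other single library was left out (0.35 to 0.63, adjusted p from 0.0881 to 0.211). Nor did it pass with sex as a covariate (adjusted p = 0.219), with the replicate block (0.105) or in DESeq2 (0.118). Cacnb2 (0.21, SE 0.0937, adjusted p = 0.178), Cacna2d1 (0.12, SE 0.166, adjusted p = 0.709), Cacna1d (0.10, SE 0.101, adjusted p = 0.559) and Cacna1g (-0.44, SE 0.562, adjusted p = 0.667) did not pass, and mutants and controls overlapped in each of them. In limma-trend with a pseudocount of 0.1 Cacnb2 passed, at 0.36 (SE 0.102, adjusted p = 0.0489), where the median of all genes was 0.15.

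Erythroid content moved with genotype in these hearts. The 10 erythroid markers summed to 1921 to 7476 CPM in mutants and 5430.5 to 17943 CPM in controls, with none at 0, and 5 of the 10 fell past the threshold. With the mean log2 CPM of these markers as a covariate, 0 of the 7 channel genes passed in edgeR and 1 had an unadjusted p under 0.05, where 222 of all 15883 genes (1.4%) passed, against 1821 without it. Cacna2d2 was then 0.30 (SE 0.132, adjusted p = 0.368), Cacna1c 0.18 (SE 0.12, adjusted p = 0.607) and Cacna1h -0.05 (SE 0.165, adjusted p = 0.942). Macrophage markers were also lower, at 1.9 to 4.19 summed CPM of 6 genes in mutants and 8.55 to 16.9 CPM in controls. Endothelial markers were higher, at 586 to 668 summed CPM of 7 genes in mutants and 441 to 515 CPM in controls, and 3 of the 7 rose past the threshold. Cardiomyocyte markers summed to 51998 to 64289.8 CPM in mutants and 41608 to 53542 CPM in controls. Of these 12 markers 2 were called higher and 3 lower. With their mean log2 CPM as a covariate Cacna1c (adjusted p = 0.00377) and Cacna2d2 (adjusted p = 0.00919) passed. In that fit 3 of the 7 channel genes passed, where 11.7% of all genes did. The part of macrophages and endothelium in the result was not tested.

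**Figure D3:**
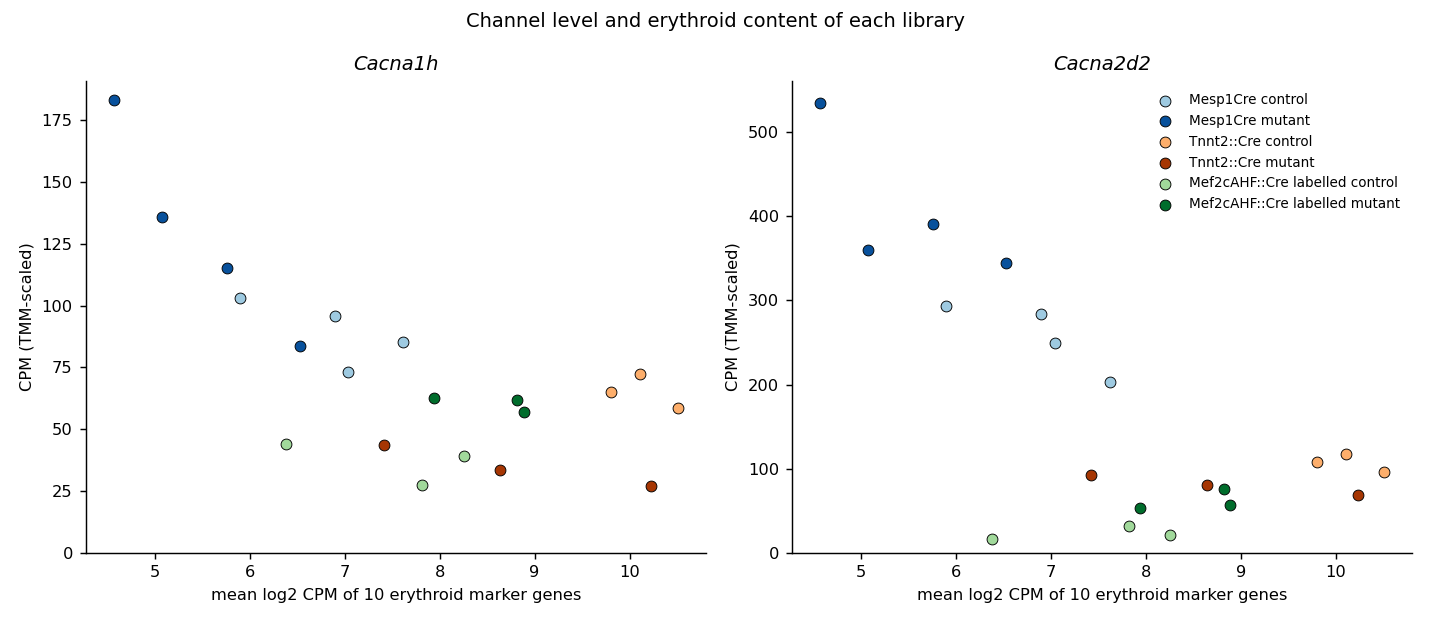
Level (y axis, CPM after TMM) of the T-type pore gene Cacna1h (left) and the alpha2delta gene Cacna2d2 (right) against the mean log2 CPM of 10 erythroid markers (x axis) in each of the 20 libraries. Mesp1Cre mutants lie at 4.57 to 6.53 on the x axis and their controls at 5.90 to 7.62. Tnnt2::Cre mutants lie at 7.42 to 10.23 and their controls at 9.80 to 10.51, with 27 to 43.6 CPM of Cacna1h in the mutants and 58.5 to 72.4 CPM in the controls.

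Deletion in cardiomyocytes was examined in the E11.5 Tnnt2::Cre hearts. None of the 7 genes passed the threshold in edgeR, where 0.293% of 17045 genes passed. In edgeR 2 of the 7 had an unadjusted p under 0.05, as did 2034 of all 17045 genes. DESeq2 called 1 of the 7, and 360 of all 33495 genes (1.07%). That base includes genes without reads, as 25833 genes had at least 1 count in these libraries. The DESeq2 share is therefore not on the base of the edgeR share. The gene nearest the threshold was the T-type pore Cacna1h. The median log2 fold change of the 7 was -0.40, and that of all genes was 0.0037.

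Cacna1h had 27, 43.6 and 33.6 CPM in mutants and 72.4, 58.5 and 65 CPM in controls. All mutants were below all controls, with a log2 fold change of -0.91 (SE 0.172, adjusted p = 0.0929 in edgeR). Its adjusted p was 4.13e-05 in DESeq2, 0.0164 without mutant 1 (-0.75) and 0.0282 without mutant 2 (-1.11), and 0.0282 with all genes of at least 1 count tested. It did not pass when control 1, 2 or 3 or mutant 3 was left out (adjusted p from 0.213 to 0.37). Nor did it pass with the replicate block (0.158), with sex (0.181) or cardiomyocyte content (0.222) as a covariate, or in limma-trend (0.251 and 0.26). With erythroid content as a covariate its log2 fold change was -1.27 (SE 0.127, adjusted p = 0.00144), where 120 of all 17045 genes (0.704%) were called.

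Cacna2d2 had 68.3, 92.2 and 81.1 CPM in Tnnt2::Cre mutants and 117, 96.4 and 108 CPM in controls. The groups did not overlap, and the log2 fold change of -0.41 did not pass (SE 0.13, adjusted p = 0.29). With erythroid content as a covariate it was -0.64 (SE 0.112, adjusted p = 0.0281), and in DESeq2 it was -0.41 (SE 0.144, adjusted p = 0.12). Erythroid markers summed to 18993 to 130918 CPM in mutants and 102797 to 158592 CPM in controls. The cardiomyocyte markers, at 37659.7 to 44399 CPM in mutants and 31293 to 41017 CPM in controls, had 0 of 12 past the threshold.

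For the remaining genes of Tnnt2::Cre the L-type pore Cacna1d (log2 fold change -0.40, SE 0.202, adjusted p = 0.476) and the T-type pore Cacna1g (-0.79, SE 0.38, adjusted p = 0.46) had negative values with overlap. The beta subunit Cacnb2 (0.27, SE 0.133, adjusted p = 0.464), Cacna1c (0.20, SE 0.122, adjusted p = 0.565) and Cacna2d1 (0.13, SE 0.0919, adjusted p = 0.637) had positive ones. Of these only Cacna2d1 did not overlap, at 31.6 to 34 CPM in mutants and 29.3 to 30.5 CPM in controls.

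Right ventricles with outflow tracts of the Mef2cAHF::Cre line were compared by the titles and by the column names, which reverse every sign. By either reading 3 of the 7 genes passed the threshold, where 2.85% of 16920 genes passed. These were an L-type pore, a T-type pore and an alpha2delta subunit, and each was higher in the libraries labelled mutant. The median log2 fold change of the 7 by the titles was 0.56, and that of all genes was -0.01.

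Cacna2d2 had 76.1, 56.8 and 53.7 CPM in the libraries labelled mutant and 31.7, 16.5 and 21.5 CPM in those labelled control. The difference was 2.68-fold (log2 fold change 1.42 by the titles and -1.42 by the column names, SE 0.222, adjusted p = 0.0167). Cacna1h had 61.8, 56.9 and 62.7 CPM against 27.3, 43.8 and 39 CPM (0.72 or -0.72, SE 0.149, adjusted p = 0.0392). Cacna1d had 29.6, 26.5 and 27.4 CPM against 18.4, 16.8 and 21.4 CPM (0.56 or -0.56, SE 0.104, adjusted p = 0.0291). None of the 3 genes overlapped between the groups.

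These calls did not hold in all fits that left out 1 library. Over those fits the log2 fold changes were 1.23 to 1.71 for Cacna2d2, 0.55 to 0.87 for Cacna1h and 0.49 to 0.66 for Cacna1d. The part of the smaller number of libraries in the lost calls was not tested. Cacna2d2 lost its call without labelled mutant 1 (1.25, adjusted p = 0.0826) or 2 (1.48, adjusted p = 0.0781). Cacna1h lost its call without labelled control 3 or any 1 labelled mutant (0.70 to 0.77, adjusted p from 0.0721 to 0.161), and Cacna1d without labelled control 1 or any 1 labelled mutant (0.51 to 0.59, adjusted p from 0.0609 to 0.145). Cardiomyocyte content also differed, with a mean log2 CPM of the 12 markers from 10.14 to 10.30 in the libraries labelled mutant and from 9.69 to 10.09 in those labelled control, and 1 of 12 markers called. With this content as a covariate Cacna1h was 1.15 (SE 0.174, adjusted p = 0.0493), Cacna2d2 0.71 (SE 0.139, adjusted p = 0.117) and Cacna1d 0.42 (SE 0.159, adjusted p = 0.372), where 37 of all 16920 genes (0.219%) were called. Cacna1g was 1.85 in that fit and did not pass (SE 0.313, adjusted p = 0.0776). Erythroid markers summed to 24767 to 46752 CPM in the libraries labelled mutant and 7196 to 31949.8 CPM in those labelled control, with 1 of 10 called. With erythroid content as a covariate 2 of the 7 genes were called, where 2.03% of all genes were. Cacna1h (0.89, adjusted p = 0.0275) and Cacna2d2 (1.09, adjusted p = 0.0391) passed, Cacna1d did not (0.43, adjusted p = 0.0932), and Cacna1g was 1.40 (adjusted p = 0.0625). These covariate values are by the titles, and the column names reverse their signs.

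By the titles the other 4 genes of this line did not pass with all 6 libraries. The pore Cacna1c was at 0.06 (SE 0.076, adjusted p = 0.747), Cacnb2 at 0.08 (SE 0.0821, adjusted p = 0.69) and Cacna2d1 at 0.05 (SE 0.0802, adjusted p = 0.799). Cacna1g, at 3.82 to 10.7 CPM over the 6 libraries, was at 0.63 (SE 0.366, adjusted p = 0.42), and without labelled control 2 at 1.19 (adjusted p = 0.0469). All 4 overlapped between the groups.

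**Figure D4:**
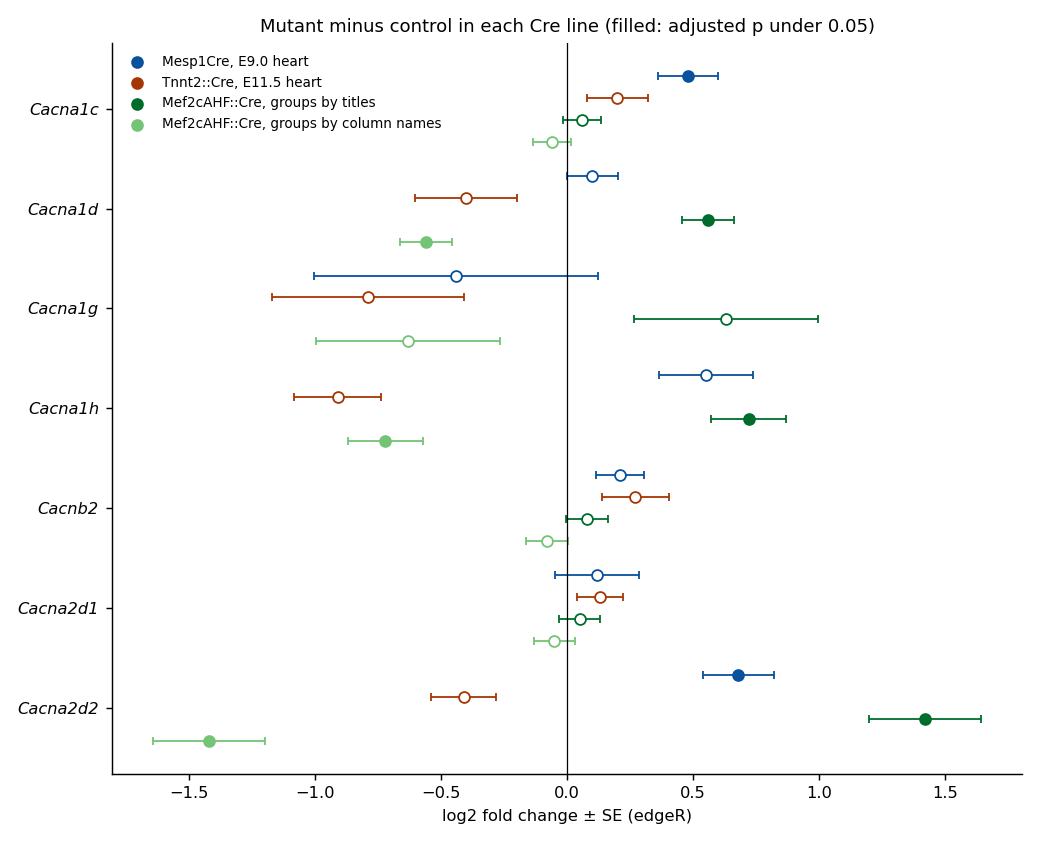
Log2 fold change (x axis, mutant minus control, with SE from edgeR) of each subunit gene in the 3 Cre lines, with the Mef2cAHF::Cre groups taken from the titles and from the column names. Filled points have an adjusted p under 0.05. Cacna1h lies at 0.55 in Mesp1Cre and -0.91 in Tnnt2::Cre, and Cacna2d2 at 0.68 and -0.41.

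Whether the genotype changed a gene differently in different lines was tested as a difference of log2 fold changes in 1 edgeR fit of 6 groups. Between Mesp1Cre and Tnnt2::Cre, 2 of the 7 genes passed, where 3.04% of 18391 genes passed. Cacna1h differed by 1.44 (SE 0.291, adjusted p = 0.0122), and this passed in each of the 14 fits that left out 1 library (1.23 to 1.64). Cacna2d2 differed by 1.07 (SE 0.269, adjusted p = 0.0366). Its adjusted p was 0.05 to 0.0913 when any 1 of 8 libraries was left out, namely Mesp1Cre controls 3 and 4, Mesp1Cre mutant 1, all 3 Tnnt2::Cre controls and Tnnt2::Cre mutants 1 and 3 (0.91 to 1.14).

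The contrast of the 4 groups is the same as that of the stage change in controls and in mutants, so these values also give how far the fall of Cacna1h and Cacna2d2 from E9.0 to E11.5 was larger in mutants. Stage, Cre line, the cells deleted and the set of libraries differ together. The differences of Cacna1d (0.50, SE 0.209, adjusted p = 0.196), Cacna1g (0.33, SE 0.702), Cacna1c (0.27, SE 0.169), Cacnb2 (-0.08, SE 0.148) and Cacna2d1 (-0.03, SE 0.191) did not pass.

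The Mef2cAHF::Cre readings gave different sets. By the titles, Cacna1d (0.97, SE 0.226, adjusted p = 0.0217), Cacna1h (1.63, SE 0.313, adjusted p = 0.00588) and Cacna2d2 (1.83, SE 0.293, adjusted p = 0.00125) differed between Mef2cAHF::Cre and Tnnt2::Cre, where 3.19% of genes were called. Also by the titles, none of the 7 passed between Mesp1Cre and Mef2cAHF::Cre, where 11.3% of genes were called. There 3 of the 7 had an unadjusted p under 0.05, as did 4773 of all 18391 genes. By the column names, Cacna1h (1.26, SE 0.292, adjusted p = 0.0373) and Cacna2d2 (2.08, SE 0.274, adjusted p = 0.00175) differed between Mesp1Cre and Mef2cAHF::Cre, where 1.63% of genes were called. Between Mef2cAHF::Cre by the column names and Tnnt2::Cre, edgeR called 0 of 18391 genes (0%), with 472 genes and 2 of the 7 (Cacnb2 and Cacna2d2) at an unadjusted p under 0.05. No other tool was run on these 4 differences.

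Right ventricle with outflow tract was compared with whole heart among E11.5 controls, Mef2cAHF::Cre against Tnnt2::Cre. The Tnnt2::Cre control libraries are those of the stage and genotype comparisons too. By the titles 5 of the 7 genes passed, where 39.8% of 17042 genes passed, and by the column names 4 did, where 38.6% of 17271 genes passed. Cacna1c, Cacna2d1 and Cacna2d2 passed in the same direction by both readings. Region, Cre line and the set of libraries cannot be told apart.

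Cacna2d1 was higher in right ventricle with outflow tract, at 45.3 to 54.3 CPM over all 6 Mef2cAHF::Cre libraries and 29.3 to 30.5 CPM in Tnnt2::Cre controls. Its log2 fold change was 0.76 by the titles (SE 0.0943, adjusted p = 0.000327) and 0.81 by the column names (SE 0.0697, adjusted p = 2.21e-05). Cacna1c was higher by 0.34 (SE 0.0873, adjusted p = 0.0118) or 0.40 (SE 0.0819, adjusted p = 0.00316). The other alpha2delta subunit, Cacna2d2, was lower by either reading, at -2.20 (SE 0.204, adjusted p = 9.42e-05) or -0.78 (SE 0.126, adjusted p = 0.000785).

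The remaining genes depended on the reading. Cacna1h was at -0.82 by the titles (SE 0.16, adjusted p = 0.00319) and -0.11 by the column names (SE 0.0875, adjusted p = 0.369), and Cacna1d at -0.77 (SE 0.18, adjusted p = 0.00784) and -0.22 (SE 0.155, adjusted p = 0.299). Cacnb2 was at 0.22 (SE 0.0999, adjusted p = 0.109) and 0.29 (SE 0.0822, adjusted p = 0.0169). Cacna1g was at -0.62 (SE 0.331, adjusted p = 0.165) and 0.01 (SE 0.241, adjusted p = 0.986), and by the titles without labelled control 2 at -1.18 (adjusted p = 0.00391). By either reading 4 of 5 atrial markers were called lower in right ventricle with outflow tract, at 671 to 844 summed CPM in the libraries labelled control and 859 to 979.5 CPM in those labelled mutant, against 1928 to 2674 CPM in Tnnt2::Cre controls. All 10 erythroid markers were also lower by either reading (median log2 fold change -2.38 by the titles and -1.51 by the column names). Of 12 cardiomyocyte markers 6 were lower and 2 higher by the titles, and 7 lower and 3 higher by the column names. Of 6 pacemaker markers 3 or 5 were lower, and 1 was higher. Of 5 ventricular markers 2 were higher and 2 lower by the titles, and 2 higher and 1 lower by the column names. Their sums were 1468 to 1875 CPM in the libraries labelled control and 2085 to 2268 CPM in those labelled mutant. In Tnnt2::Cre controls these sums were 2627 to 3476 CPM. Of 6 neuronal and neural crest markers tested, 3 were higher and 0 lower by either reading. The part of these cells in the channel values was not tested.

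**Figure D5:**
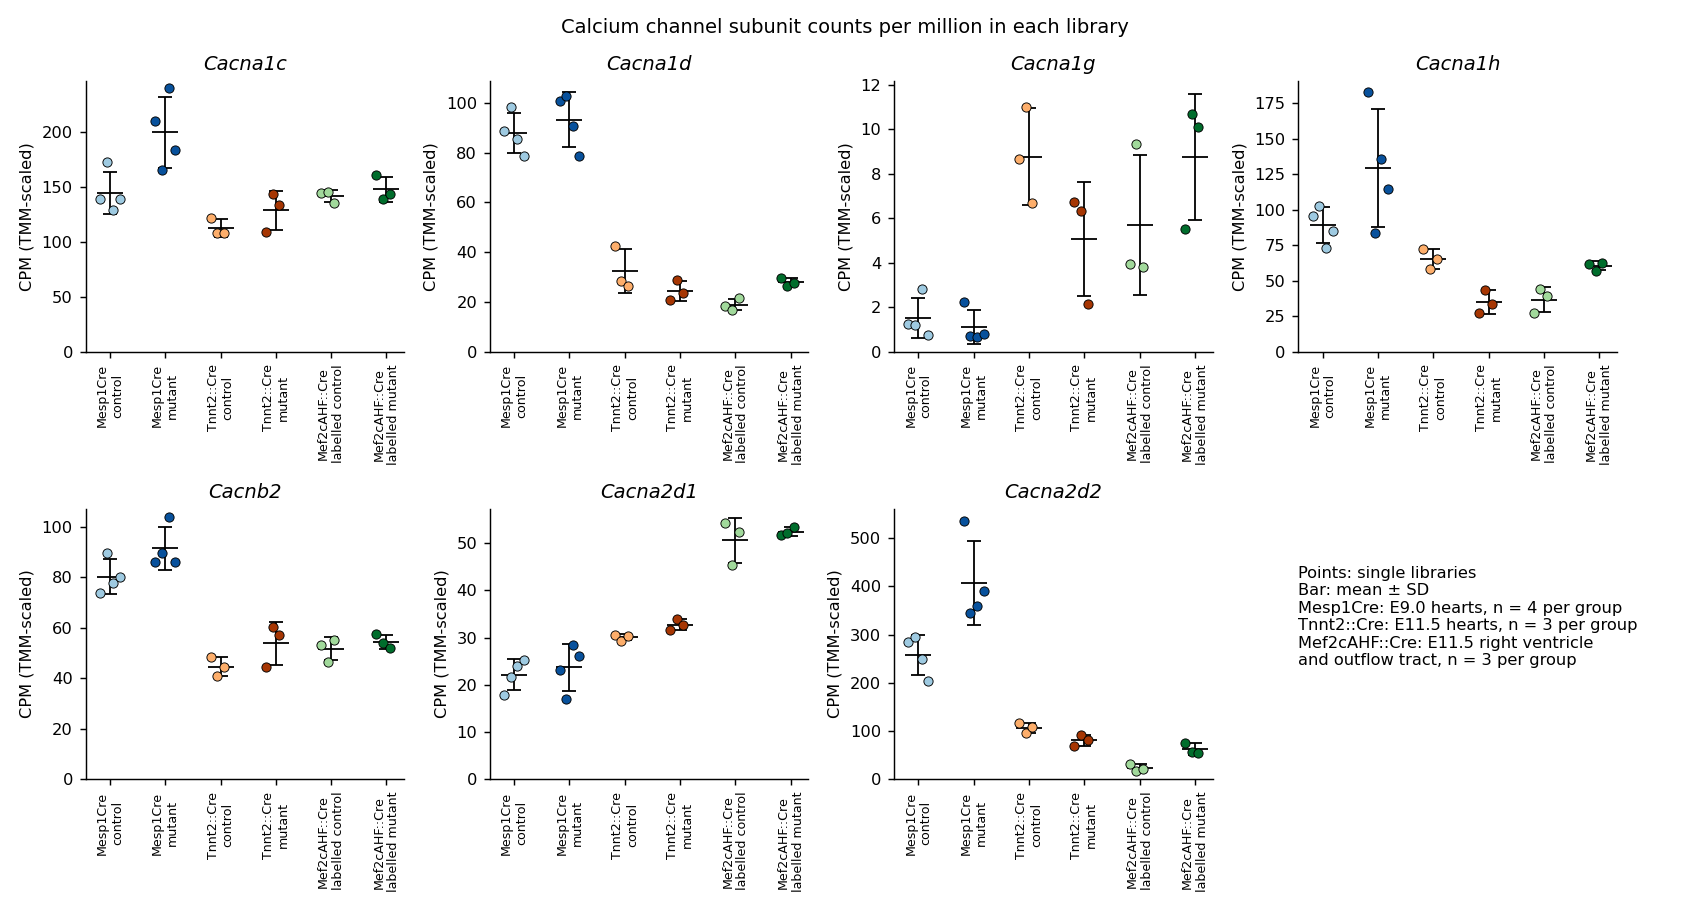
CPM after TMM (y axis, from 0) of each subunit gene in the 20 libraries, by group. Points are libraries, and bars give the mean and SD (n = 4 for Mesp1Cre, n = 3 for the others). The 4 Mesp1Cre mutants have 345 to 535 CPM of Cacna2d2, above their controls, and the 3 Tnnt2::Cre mutants have 27 to 43.6 CPM of Cacna1h, below theirs.

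The rest of the channel family was read from 3 lists. Of all genes tested, 11.47% passed in Mesp1Cre, 2.85% in Mef2cAHF::Cre, 0.293% in Tnnt2::Cre and 38.3% between stages. Between regions 39.8% passed by the titles and 38.6% by the column names. In edgeR 3037 of 16920 genes in Mef2cAHF::Cre and 2034 of 17045 in Tnnt2::Cre had an unadjusted p under 0.05. DESeq2 called 3.23% and 1.07% of all 33495 genes in these lines. That base includes genes without reads, so the DESeq2 shares are not on the base of the edgeR shares. The counts of each list stand beside these shares. Of 19 other calcium channel subunit genes, 11 or 12 were tested in each 2-group comparison. In Mesp1Cre 1 passed, the alpha2delta gene Cacna2d3, at 0.338 to 0.554 CPM in mutants and 1.63 to 4.35 CPM in controls (log2 fold change -2.42, SE 0.484, adjusted p = 0.00734). In Tnnt2::Cre 1 passed, the gamma subunit gene Cacng6, at 0.0524 to 0.195 CPM in mutants and 0.811 to 1.24 CPM in controls (-3.01, SE 0.47, adjusted p = 0.0475). In Mef2cAHF::Cre edgeR called 0 of 12, 2 had an unadjusted p under 0.05 and DESeq2 called 1.

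Between stages 4 of 11 passed, where 38.3% of all genes did. Cacna2d3 (log2 fold change 1.43, adjusted p = 0.0106) and the beta subunit genes Cacnb1 (1.01, adjusted p = 0.0407) and Cacnb3 (0.86, adjusted p = 0.0349) rose, and Cacna1s, the L-type pore of skeletal muscle, fell (-2.22, adjusted p = 0.000523). Between regions by the titles 7 of 12 passed, 5 higher and 2 lower. The largest were Cacng6 (-3.66), Cacng7 (2.47) and Cacna2d3 (-2.28). By the column names 4 of 11 passed, 3 higher and 1 lower, with Cacng7 at 2.39 and Cacna2d3 at -1.46 called and Cacng6 at -0.60 not (adjusted p = 0.325). These genes were counted at low levels, at most 11.4 CPM in any library of the comparison for those named with values here.

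Of 14 sodium channel subunit genes, 11 were tested within each line. In Mesp1Cre 1 passed, the beta subunit gene Scn4b, at 0.0853 to 0.338 CPM in mutants and 1.11 to 4.02 CPM in controls (log2 fold change -3.69, SE 0.578, adjusted p = 0.00169). In Mef2cAHF::Cre 1 passed, Scn7a, at 8.97 to 10.6 CPM in the libraries labelled mutant and 1.93 to 4.08 CPM in those labelled control (1.83 by the titles, SE 0.258, adjusted p = 0.0109). In edgeR 6 of the 11 had an unadjusted p under 0.05 there, as did 3037 of all 16920 genes, and DESeq2 called 1. The median log2 fold change of the 11 by the titles was 0.72, and that of all genes was -0.01. In Tnnt2::Cre edgeR called 0, with 2 at an unadjusted p under 0.05 and 2 called by DESeq2. Between stages 1 of 11 rose and 2 fell, among them Scn4b (-2.04, adjusted p = 0.025), and between regions 2 of 12 were higher and 3 lower by the titles, and 3 of 12 higher and 0 lower by the column names.

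Of 26 genes that regulate these channels (calmodulins, kinases, anchoring proteins and the like), 7 of 23 passed in Mesp1Cre, 4 higher and 3 lower. Calm2, whose protein binds the L-type pore, fell (log2 fold change -0.41, SE 0.096, adjusted p = 0.0154). The kinase genes Camk2d (0.51, SE 0.0978, adjusted p = 0.00537) and Prkacb (0.35, SE 0.0842, adjusted p = 0.0183) and the phosphatase gene Ppp3ca (0.42, SE 0.0926, adjusted p = 0.0121) rose. In Mef2cAHF::Cre by the titles 3 of 24 passed, all higher, among them the caveolin gene Cav3 (1.02) and Ahnak (0.45). In Tnnt2::Cre edgeR called 0 of 24, with 4 at an unadjusted p under 0.05 and 3 called by DESeq2. Between stages 10 of 23 rose and 4 fell, led by Cav3 (2.96, adjusted p = 1.75e-05) and the anchoring protein gene Akap5 (-1.75, adjusted p = 2.79e-05), and between regions 4 of 25 were higher and 5 lower by the titles, led by Fgf12 (-2.81) and Cav3 (-1.87). By the column names 5 of 24 were higher and 4 lower, with Fgf12 at -2.34 and Cav3 at -0.85.

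Over the 20 libraries the genes fell into patterns that are described by Pearson's r of log2 CPM, where stage, region and library composition are shared by all genes. Cacna1d and Cacna2d2 had an r of 0.93, Cacna1d and Cacnb2 of 0.89, and Cacna1d and Cacna1h of 0.87. Cacna2d1 had an r of -0.85 with Cacna2d2 and -0.82 with Cacna1d, and Cacna1g of -0.89 with Cacnb2. Among 12311 genes with a mean log2 CPM of at least 1, those most like Cacna2d2 included Wnt2 (0.971) and Itga6 (0.967), and the 3 most like Cacnb2 were Pdlim5 (0.971), Homer1 (0.967) and Nebl (0.967). Cacna1d was most like Arid3b (0.976), Rassf5 (0.972) and Cck (0.962), and Cacna1c most like Mast4 (0.933), Megf11 (0.931) and Fhod3 (0.929). Cacna1h was most like AC158577.1 (0.926), Cdgap (0.910) and Smtnl2 (0.898), Cacna2d1 most like A730069N07Rik (0.960), Phf20l1 (0.947) and Cux1 (0.945), and Cacna1g most like Pdk2 (0.920), Traf5 (0.920) and Tle2 (0.917).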

How the data were processed

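Counts of reads per gene for 20 libraries, not normalized, were deposited by the authors, who aligned to mm9 (TopHat2 2.0.8b in the submitters' processing notes) and counted with featureCounts. The FPKM values deposited by the authors beside them came from USeq, scaled by gene length and library total. The 20 variance-corrected columns, 1 for each library, were not used. The paper and the labels differ on the library kit and instrument.

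Samples were grouped by titles and genotypes. Counts were tested in edgeR 4.0.16 (R 4.3.3; filterByExpr, TMM, quasi-likelihood F test, Benjamini-Hochberg adjustment over all genes tested, threshold 0.05), each comparison on its 2 groups, and differences between lines on 6 groups. The SE is the log2 fold change divided by the square root of F. Alternatives for the 2-group comparisons and for Mesp1Cre against Tnnt2::Cre were DESeq2 1.42.0 (its size factors, its Wald test), 2 other count filters and leaving out each library. The 2-group comparisons also had limma-trend 3.58.1 on log2 FPKM (pseudocount 0.1 or 1), the 6-group fit and a replicate block. Only mutant against control within a line had covariates, 1 at a time. These were the mean log2 CPM of erythroid or cardiomyocyte markers, and sex in Mesp1Cre and Tnnt2::Cre but not in Mef2cAHF::Cre. A code in the sample descriptions was a block in Mesp1Cre only. Scripts were tested on simulated data.

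The 7 genes and the lists were chosen with earlier results of these data known. The text names those 7, Kmt2d, the called list genes with the largest changes (at most 6 a list) and the 3 genes most like each of the 7. Some genes under these rules are not reported here. Table coordinates were written 1-based.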

Additional observations from a re-analysis of the deposited data

Results flagged for a closer look

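In the Mesp1Cre groups of 4 libraries, 1 value among the 7 genes stood apart from the rest of its group. This was Cacna1g in Mesp1Cre mutant 1, at 2.24 CPM (53 reads), where the other 3 mutants had 0.64 to 0.777 CPM. Such a gap arises by chance in about 1 of 20 groups.

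The genotype difference of some genes was not the same in different lines by a test of the difference in edgeR. Between Mesp1Cre and Tnnt2::Cre, Cacna1h differed by 1.44 and Cacna2d2 by 1.07 on the log2 scale. With the Mef2cAHF::Cre groups taken from the column names, Cacna1h differed by 1.26 and Cacna2d2 by 2.08 between Mesp1Cre and that line. With the groups taken from the titles, Cacna1d differed by 0.97, Cacna1h by 1.63 and Cacna2d2 by 1.83 between that line and Tnnt2::Cre. The lines also differ in stage or dissected region and in the set of libraries, which cannot be told apart from the Cre.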

How the results depend on the processing

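The number of the 7 genes called was 6 or 7 between stages and 4 to 6 between regions in the alternatives on all libraries. In Mesp1Cre, where 2 were called, it was 0 with erythroid content as a covariate, 1 with sex as a covariate and 1 with the replicate block, while calls over all genes went from 1821 to 222, 899 and 1384. It was 3 with cardiomyocyte content, with genes of at least 10 counts in every library, and in limma-trend with a pseudocount of 0.1. Calls over all genes were then 1851, 1928 and 1924. In Mef2cAHF::Cre, where 3 were called, it was 1 in the 6-group fit, with cardiomyocyte content as a covariate, and in limma-trend with either pseudocount (all genes from 482 to 129, 37, 291 and 253). In Tnnt2::Cre, where 0 were called, it was 1 in DESeq2, 1 with all genes of at least 1 count and 2 with erythroid content (all genes from 50 to 360, 120 and 120). All-gene counts moved in the same direction. Leaving out 1 library gave 1 to 3 in Mesp1Cre, 0 to 4 in Mef2cAHF::Cre, 0 to 1 in Tnnt2::Cre, 5 to 7 between stages, 5 to 6 between regions and 1 to 2 for Mesp1Cre against Tnnt2::Cre. The causes were not tested.

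Replicate numbers are shared between genotypes, and the labels state no pairing. Deviations from the group mean over 12311 genes had correlations from -0.11 to 0.23 for same-numbered libraries and from -0.24 to 0.22 for the others. The highest value was that of a same-numbered pair in Mef2cAHF::Cre (0.23) and Tnnt2::Cre (0.19), but not in Mesp1Cre. The ranges overlap, so they cannot show whether libraries were paired. In Mesp1Cre same-numbered libraries do share an unexplained code in the sample descriptions, and with it as a block 2 genes were called. With the replicate block 1 gene was called in Mesp1Cre, 3 in Mef2cAHF::Cre, 0 in Tnnt2::Cre, 7 between stages and 6 between regions.

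Log2 fold changes that changed sign were those of genes not called, apart from the reading of the labels. By the column names Mef2cAHF::Cre gave -0.06 for Cacna1c, -0.56 for Cacna1d, -0.63 for Cacna1g, -0.72 for Cacna1h, -0.08 for Cacnb2, -0.05 for Cacna2d1 and -1.42 for Cacna2d2, and the region comparison gave 0.01 for Cacna1g. In limma-trend, with a pseudocount of 0.1 and of 1, Mef2cAHF::Cre gave -0.08 and -0.07 for Cacna1c, -0.05 and -0.05 for Cacnb2, and -0.08 and -0.07 for Cacna2d1, where the median of all genes was -0.13 and -0.10. That median was 0.15 and 0.11 in Mesp1Cre, 0.11 and 0.08 in Tnnt2::Cre and 0.22 and 0.14 between regions. With cardiomyocyte content Mef2cAHF::Cre gave -0.09 for Cacnb2 and -0.11 for Cacna2d1, and with erythroid content -0.05 and -0.04. Erythroid content gave -0.05 for Cacna1h in Mesp1Cre and -0.0039 for Cacna1c in Tnnt2::Cre, and sex gave 0.16 for Cacna1g in Mesp1Cre. Leaving out 1 library, Mesp1Cre ranged from -1.04 to 0.06 for Cacna1g, and Mef2cAHF::Cre from -0.005 to 0.10 for Cacna1c and from -0.02 to 0.10 for Cacna2d1. The difference between Mesp1Cre and Tnnt2::Cre ranged from -0.27 to 0.83 for Cacna1g, from -0.21 to 0.0034 for Cacnb2 and from -0.13 to 0.10 for Cacna2d1.

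With 3 or 4 libraries a group, small changes cannot be resolved, and Cacna1g rested on 15 to 71 reads in each Mesp1Cre library.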
